A study of Mus musculus with 7 samples.

Results

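The genes examined are 33 genes of fatty acid oxidation and of the PPAR pathway that controls it, described in sorted mouse intestinal crypt cells from 3 diets. They were taken as a list of symbols, by known function and with no measured value in the rule. All 33 were found among the 37310 genes counted, and all 33 passed the filter on low counts. The labels name all cells Bmi1 cells, sorted in bulk from dispersed intestinal crypts as strongly red, Epcam+ and CD45-. All mice were BmicreERT2, Rosa26RFP, so the red signal marks cells in which a Cre expressed from the Bmi1 locus has acted, and any descendants of those cells. The mice ate AIN76A (2 libraries), NWD1 (3 libraries) or NWD2 (2 libraries) from weaning until 3 months of age. AIN76A, made of purified ingredients, is the control. NWD1 models a Western way of eating: it is fattier and holds little calcium, vitamin D3 and methyl donor. NWD2 keeps the formula of NWD1 but restores calcium and vitamin D3 to higher amounts. Every library was labelled male but NWD1 replicate 2. The labels do not say that each library came from its own animal, so the p-values measure only the spread between these libraries.

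Long-chain fatty acids enter a cell through proteins such as CD36, are joined to coenzyme A by acyl-CoA synthetases, and pass into mitochondria through the carnitine shuttle, where beta-oxidation shortens them. Peroxisomes run a parallel route for very long and unusual chains. The PPAR receptors are nuclear receptors that bind fatty acids and, with the partner RXR, raise many of these genes, and in the small intestine they are best known from the absorptive enterocytes that handle dietary fat.

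The sorted libraries held abundant enterocyte RNA. The 24 enterocyte markers summed to between 51304 and 140435 CPM (counts scaled to library size) per library, and the 12 crypt base stem cell markers to between 415 and 1264 CPM. Of the latter, Olfm4 made 273 to 1024 CPM. The 10 Paneth markers summed to 12001 to 44409 CPM and the 12 goblet markers to 5770 to 20206 CPM. In NWD2 the 20 enteroendocrine markers summed to 514 and 699 CPM and the 14 tuft markers to 93.3 and 123 CPM. In the other libraries these lists came to 1760 to 2329 and 180 to 502 CPM. The part of these cell markers in the differences between diets was not tested. Bmi1 itself lay between 2.12 and 5.25 CPM. The 17 leukocyte markers summed to 15.1 to 36.8 CPM, with Ptprc, which encodes CD45, at 1.17 to 5.75 CPM. The 17 stromal, endothelial and adipocyte markers summed to 96.9 to 319 CPM, of which Cidec, a lipid droplet gene and itself a PPAR target, made 85.3 to 306. Of the rest of that list, Cdh5 had no count in any library, Lyve1 lay between 3.12 and 8.04 CPM, Vim between 1.14 and 9.31 CPM and Tek between 0.0144 and 2.4 CPM, and every other gene was at 0.532 CPM or less in every library. Total counts ran from 14034315 in NWD1 replicate 3 to 77959407 in NWD2 replicate 2. NWD2 replicate 2 stood apart from the rest, with the most enterocyte marker RNA and the lowest Epcam, at 225 CPM against 510 to 1338 CPM elsewhere. Other epithelial markers did not all follow Epcam. In this library Krt18 was also lowest, at 184 CPM, but Cdh1 was highest, at 1149 CPM. The 5 epithelial markers summed to 5581 CPM in it, and to 4610 to 8513 CPM elsewhere. The TMM factor of NWD2 replicate 2 was the lowest, at 0.797, which makes its CPM higher than under scaling by library size alone. The diet of NWD1 replicate 3 is less certain, because the deposited TPM table, of length-corrected levels, has no column for it and has instead a column named for an NWD2 library that matches no sample. Both AIN76A libraries carried the i5 index N503 and both NWD2 libraries N504, so index goes with diet in that comparison. In NWD1, replicates 1 and 2 carried N503 and replicate 3 N504, so a fit with a term for the index rests on these libraries.

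Promoter sequence is shown for 4 members whose levels set apart the main patterns below. Acot1, Acadl and Slc27a2 were highest in NWD1 libraries, and Cpt1a was highest in NWD2 replicate 2. Each line gives the 250 bases before the transcription start, from RefSeq on GRCm38.p6, with the AGGTCA core motif that PPAR and RXR recognise, or its reverse complement TGACCT, in capitals. The stretches lie at chr12:84009252-84009501 on the plus strand for Acot1, chr1:66863310-66863559 on the minus strand for Acadl, chr2:126552774-126553023 on the plus strand for Slc27a2 and chr19:3323051-3323300 on the plus strand for Cpt1a.
Acot1: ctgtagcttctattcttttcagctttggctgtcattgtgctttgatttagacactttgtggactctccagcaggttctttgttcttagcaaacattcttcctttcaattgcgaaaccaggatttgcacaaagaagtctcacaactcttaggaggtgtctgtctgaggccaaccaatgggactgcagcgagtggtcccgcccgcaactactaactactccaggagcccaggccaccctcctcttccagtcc
Acadl: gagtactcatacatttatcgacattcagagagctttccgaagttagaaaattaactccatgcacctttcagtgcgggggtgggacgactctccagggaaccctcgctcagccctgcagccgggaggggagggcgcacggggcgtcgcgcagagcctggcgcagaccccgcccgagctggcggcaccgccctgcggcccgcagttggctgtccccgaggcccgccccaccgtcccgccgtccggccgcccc
Slc27a2: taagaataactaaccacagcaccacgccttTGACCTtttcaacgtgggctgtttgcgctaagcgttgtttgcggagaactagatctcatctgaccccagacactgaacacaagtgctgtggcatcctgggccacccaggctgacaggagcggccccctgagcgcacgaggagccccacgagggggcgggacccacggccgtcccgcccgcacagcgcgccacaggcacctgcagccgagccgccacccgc
Cpt1a: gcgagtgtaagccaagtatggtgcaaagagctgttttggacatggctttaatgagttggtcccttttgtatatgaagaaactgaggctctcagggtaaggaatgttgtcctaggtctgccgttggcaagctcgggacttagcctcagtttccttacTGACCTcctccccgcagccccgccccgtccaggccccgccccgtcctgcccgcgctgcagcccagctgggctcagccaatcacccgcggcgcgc

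The core motif begins 220 bases before the start in Slc27a2 and 94 bases before it in Cpt1a, and the printed stretches of Acot1 and Acadl hold none. The RefSeq table matched 30 of the 33 members, with 34 promoters, and held no entry for Acaa2, Angptl4 and Decr1. AGGTCA, searched on both strands, was in 9 of these 34 promoters (26.5%) and in 14% of the 32851 promoters of the table. The full spaced repeat AGGTCANAGGTCA was in 0 of the 34 and in 0.0335% of all. The looser repeat AGGNCANAGGNCA, which contains the full one, was in 0 of the 34 and in 0.338% of all. The part repeat AGGTCANAGG was in 1 of the 34, that of Slc27a2, and in 0.56% of all.

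No member passed the test in any comparison of diets. With edgeR's quasi-likelihood test and Benjamini-Hochberg adjustment, 0 of the 14626 genes tested (0%) had an adjusted p under 0.05 with NWD1 against AIN76A, NWD2 against AIN76A, NWD2 against NWD1, or both NWD diets against AIN76A. The smallest adjusted p of a member was 0.878, 0.996, 0.571 and 0.984 in that order. At an unadjusted p under 0.05, the count of members was 0, 0, 2 and 0 (the 2 being Acot1 and Acadl), beside 500 (3.42%), 560 (3.83%), 1154 (7.89%) and 391 (2.67%) of all genes. Both of these members were lower in NWD2 than in NWD1, as were 6.75% of all genes. With DESeq2, 1, 52, 180 and 2 genes were called, none of them a member, and limma voom called 0 genes in each comparison. The lowest count of any member in any library was 80, for Acot1 in AIN76A replicate 1. The part of depth in these results was not tested. In bulk RNA of this kind, fewer cells of a type and less RNA per cell cannot be told apart.

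The clearest pattern among the members was a difference between the 2 NWD2 libraries, not between diets. NWD2 replicate 2 had the highest level of all 7 libraries for 20 of the 33 members (60.6%), beside 23.1% of all genes tested. NWD2 replicate 1 had the lowest level for 11 members (33.3%), beside 8.18% of all genes. Between these libraries, which ate the same diet, 29 of 33 members were higher in replicate 2, beside 48.2% of all genes, and 22 members were over 1.5-fold higher, beside 21% of all genes. The median ratio of replicate 2 to replicate 1 was 1.75 over the members and 0.976 over all genes. Scaled by library size alone, in place of TMM, NWD2 replicate 2 was highest for 12 members and 8.10% of genes, and above replicate 1 for 24 members and 29.9% of genes.

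For 29 of the 33 members, the difference between the NWD2 libraries was larger than the fitted difference of NWD2 from AIN76A, beside 60.1% of all genes. The median size was 0.81 on the log2 scale between the NWD2 libraries and 0.28 between the diets, beside 0.39 and 0.31 over all genes. The first is a difference of single libraries and the second is fitted over the libraries of each diet, so they are unlike measures. The AIN76A libraries also differed from each other by more than the fitted diet difference for 23 members, both with NWD2 (53.7% of all genes) and with NWD1 (56.3% of all genes). The summed enterocyte markers were 71369 CPM in NWD2 replicate 1 and 140435 CPM in replicate 2, and the crypt base stem cell markers 1264 and 529 CPM. Of the stem cell sums, Olfm4 made 1024 and 410 CPM. Rnf43 alone of that list was higher in replicate 2, at 51.0 CPM against 18.8 CPM. The part of these cell markers in the members' pattern was not tested.

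**Figure D1:**
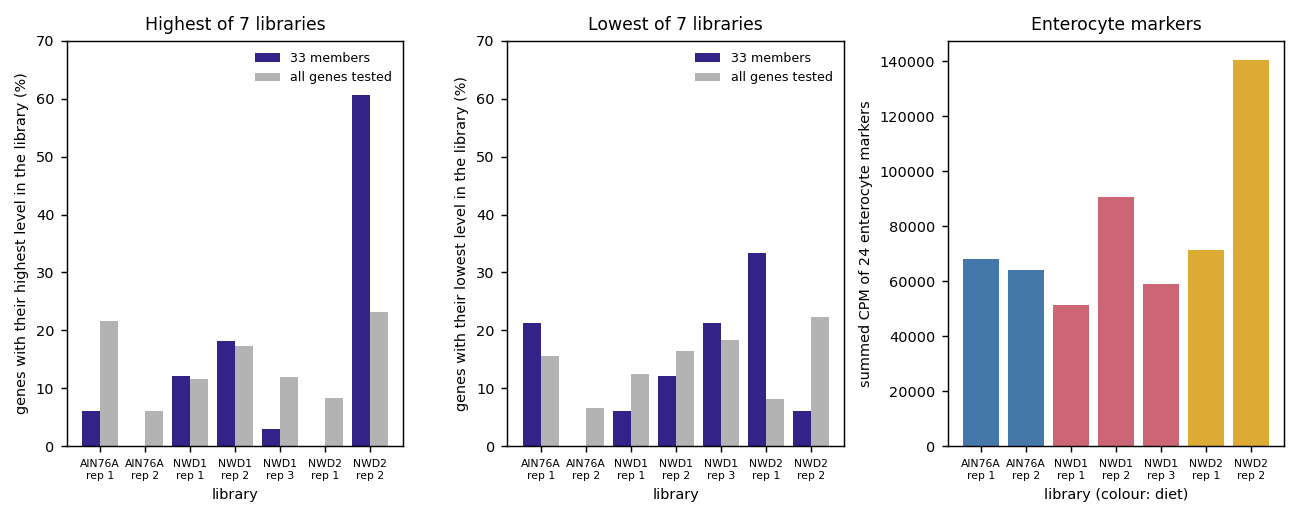
Bars show, for each library, the percentage of the 33 members and of the 14626 genes tested that have their highest (left) or lowest (middle) level in it, and the summed CPM of 24 enterocyte markers (right). NWD2 replicate 2 holds the highest level of 60.6% of members against 23.1% of genes, and its enterocyte markers sum to 140435 CPM.

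Among the genes that bring in and activate fatty acids, Acsl5 was by far the most abundant. Acsl5, an acyl-CoA synthetase of enterocytes, had 2258 and 3569 CPM in AIN76A, with 2621, 3647 and 3129 in NWD1 and 2062 and 7335 in NWD2. The lowest and the highest value thus both belong to NWD2. Acsl1, the synthetase best known from liver and fat, had 77.4 and 114 CPM in AIN76A, with 71.9, 141 and 122 in NWD1 and 118 and 208 in NWD2, so that NWD2 lay above AIN76A without overlap while NWD1 overlapped both. Cd36, the fatty acid translocase, had 68.1 and 175 CPM in AIN76A, with 174, 134 and 86.6 in NWD1 and 79.2 and 315 in NWD2. Its diets overlapped throughout.

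The fatty acid transport proteins took another course. Slc27a2, a transporter that also activates very long chains, had 65.9 and 259 CPM in AIN76A, with 263, 283 and 197 in NWD1 and 132 and 122 in NWD2. Slc27a4, the main fatty acid transport protein of the small intestine, had 204 and 481 CPM in AIN76A, with 463, 551 and 642 in NWD1 and 269 and 355 in NWD2. For both, every NWD1 library was above every NWD2 library, while the AIN76A libraries spanned a range wider than the gap.

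The 3 genes of the carnitine shuttle shared the split within NWD2. Cpt1a, the rate-controlling step of mitochondrial entry, had 145 and 307 CPM in AIN76A, with 223, 186 and 216 in NWD1 and 138 and 452 in NWD2. Its NWD1 libraries lay within the range of AIN76A, and its NWD2 libraries were the lowest and the highest of all. Cpt2, which returns the chain to coenzyme A inside the mitochondrion, ran from 270 to 606 CPM, and Slc25a20, the carnitine carrier, from 146 to 343 CPM. Both had these extremes in NWD2 replicates 1 and 2.

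Of the 8 genes of the mitochondrial spiral, 7 were highest in NWD2 replicate 2 and the other was Acadl. These 7 encode 3 acyl-CoA dehydrogenases (Acadm, Acadvl and Acads), the trifunctional protein (Hadha and Hadhb), the hydroxyacyl-CoA dehydrogenase Hadh and the thiolase Acaa2. Their highest level was between 1.63 (Acads) and 2.32 (Hadha) times their lowest. Acadl, the long-chain acyl-CoA dehydrogenase, had 142 and 328 CPM in AIN76A, with 417, 385 and 359 in NWD1 and 207 and 227 in NWD2. Every NWD1 library was above every other library for it. Hadha had 257 and 340 CPM in AIN76A, with 273, 273 and 336 in NWD1 and 226 and 525 in NWD2.

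The enzymes that handle double bonds had a highest level between 1.64 (Decr1) and 2.05 (Eci1) times their lowest. Ech1 ran from 318 to 599 CPM, Decr1 from 208 to 341, Eci2 from 64.4 to 107 and Eci1 from 123 to 251 CPM. Eci1, an enoyl-CoA isomerase, had 251 and 183 CPM in AIN76A, with 217, 127 and 123 in NWD1 and 160 and 173 in NWD2. Its NWD2 libraries were below both AIN76A libraries and inside the range of NWD1. Eci2 shares 5.31% of its 50-base words with Eci3, so that part of its count is uncertain.

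The peroxisomal genes went in opposite directions in NWD2 replicate 2. Ehhadh, the bifunctional enzyme and a textbook PPAR target, had 368 and 423 CPM in AIN76A, with 365, 517 and 479 in NWD1 and 382 and 916 in NWD2. Acaa1a, the peroxisomal thiolase, had 116 and 238 CPM in AIN76A, with 321, 145 and 225 in NWD1 and 160 and 84.6 in NWD2. NWD2 replicate 2 was thus the highest library for Ehhadh and the lowest for Acaa1a. Acaa1a shares 26.7% of its 50-base words with Acaa1b, so that part of its count is uncertain.

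The thioesterases, which release fatty acids from coenzyme A, had low levels, and Acot1 had the widest spread of all members over the 7 libraries. Acot1, the cytosolic enzyme, had 1.44 and 15.1 CPM in AIN76A, with 24.6, 25.7 and 14.7 in NWD1 and 3.97 and 6.35 in NWD2. The AIN76A libraries differed 10.5-fold from each other. Acot2, the mitochondrial enzyme, had 3.53 and 5.56 CPM in AIN76A, with 8.11, 8.22 and 5.51 in NWD1 and 4.63 and 5.37 in NWD2. For both, each NWD1 library was above each NWD2 library, but 1 NWD1 library lay below the higher AIN76A library. Acot1 and Acot2 share 23.5% and 24.5% of their 50-base words with each other, so part of their counts is uncertain. With Acot3, Acot4 and Acot5 included as well, the shares were 31.5% for Acot1 and 27.6% for Acot2.

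The receptors showed no diet order beyond their spread. Ppara, the receptor most tied to fatty acid oxidation, was the steadiest of all members, from 27.8 CPM in NWD1 replicate 2 to 41.6 CPM in AIN76A replicate 1. Ppard ran from 7.96 to 20.001 CPM and had both a high and a low library in AIN76A and in NWD1. Pparg, the receptor of fat storage, had 6.10 and 12.1 CPM in AIN76A, with 13.9, 13.2 and 10.03 in NWD1 and 5.84 and 19.0 in NWD2. The coactivator Ppargc1a ran from 70.3 to 122 CPM and Creb3l3, a factor that works with PPAR alpha in liver and gut, from 489 to 905 CPM, each highest in NWD2 replicate 2.

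Among the remaining targets, Pdk4 varied most within a diet. Pdk4, the kinase that slows glucose oxidation when fat is burned, had 14.8 and 37.6 CPM in AIN76A, with 20.4, 84.8 and 25.4 in NWD1 and 19.3 and 65.5 in NWD2. The only library from a female, NWD1 replicate 2, was its highest, 4.16 times the lowest of that diet. Angptl4, an inhibitor of lipoprotein lipase, was also highest there, at 71.5 CPM, and lowest in NWD1 replicate 3, at 27.8 CPM. Plin2, the lipid droplet coat protein, ran from 183 CPM in NWD1 replicate 3 to 508 CPM in NWD2 replicate 2, and Ucp2, a mitochondrial carrier, from 1206 CPM in NWD2 replicate 1 to 2322 CPM in NWD1 replicate 1.

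**Figure D2:**
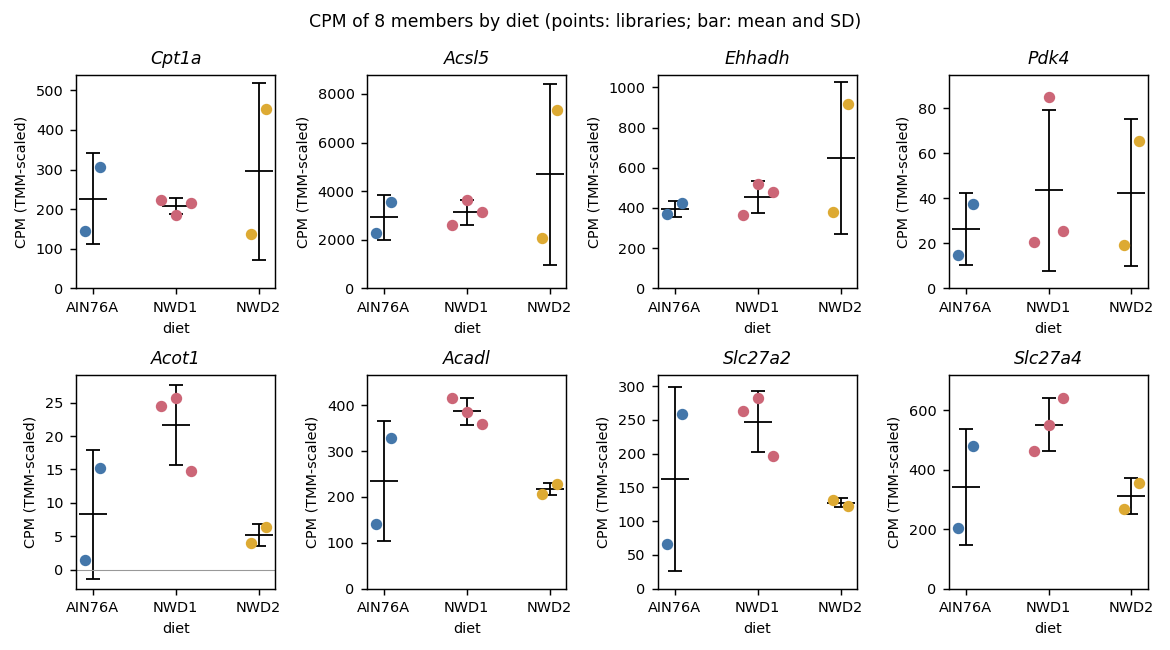
TMM-scaled CPM of 8 members by diet, with points for libraries and bars for the mean and SD (n = 2 for AIN76A, 3 for NWD1 and 2 for NWD2). In the upper row the NWD2 libraries are far apart, as at 2062 and 7335 CPM for Acsl5, and in the lower row every NWD1 library is above every NWD2 library, as for Acadl with 359 to 417 against 207 and 227 CPM.

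Levels were compared between genes in the deposited TPM, which correct for length and cover 6 libraries. Acsl5 ranked highest with a median of 1757 TPM, followed by Acaa2 at 1148, Ucp2 at 436, Hadh at 425 and Creb3l3 at 381 TPM. At the other end stood Acot1 at 13.0, Pparg at 13.0, Ppard at 4.89 and Acot2 at 4.55 TPM. Neighbours in this order mostly overlapped over the libraries: Acaa2 ran from 862 to 1439 TPM and Acsl5 from 1020 to 3378 TPM. Ppara had a median of 17.3 TPM, and its range of 14.9 to 19.5 TPM lay above the range of Ppard, 2.80 to 8.93 TPM.

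NWD1 against AIN76A asks what the Western-style diet does to these genes, and the members did not shift as a set. Of the 33, 16 had a positive and 17 a negative log2 fold change (50.6% of all genes were positive), with 22 positive under library size scaling, which moved the median of all genes to 0.11. The median was -0.02 over the members and 0.01 over all genes. By role, all 5 genes of entry and activation were positive and all 4 genes for double bonds were negative, under both scalings, and none of these 9 passed the test. Of all members, 1 was higher in every NWD1 library than in both AIN76A libraries, beside 11.4% of all genes, and this was Acadl. None was lower in every NWD1 library, beside 8.61% of all genes.

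The 5 largest fitted changes with NWD1 against AIN76A were all positive. Acot1 had 8.29 ± 9.69 CPM (SD, n = 2) in AIN76A and 21.7 ± 6.04 CPM (SD, n = 3) in NWD1, a log2 fold change of 1.39 (SE 0.77). Acadl had 235 ± 132 and 387 ± 29.0 CPM, a log2 fold change of 0.72 (SE 0.36), which went from 0.23 without AIN76A replicate 1 to 1.45 without AIN76A replicate 2. Slc27a4 had 342 ± 196 and 552 ± 89.8 CPM, or 0.69 (SE 0.38) on the log2 scale, with 0.19 and 1.44 without the same libraries in turn. Acot2 came to 0.69 (SE 0.36), with 0.39 and 1.05 without them, and Pdk4 to 0.74 (SE 0.72), which became -0.19 without NWD1 replicate 2 and 1.56 without AIN76A replicate 2. The smallest unadjusted p among them in edgeR's test was 0.0737, for Acadl, with an adjusted p of 0.878. Acot1 likewise moved, to 0.51 without AIN76A replicate 1 and 3.91 without AIN76A replicate 2. None of these differences exceeded the spread between libraries by that test.

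NWD2 against AIN76A asks whether the fattier diet with calcium and vitamin D3 restored differs from the control. Of the members, 19 were positive and 14 negative (47.4% of all genes were positive), with a median log2 fold change of 0.08 beside -0.03 over all genes. The count of positive members fell to 14 under library size scaling, which moved the median of all genes to -0.15, and to 4 without NWD2 replicate 2. Without that library the members' median was -0.41, and without AIN76A replicate 2 it was 0.40. Acsl1 was the 1 member higher in both NWD2 libraries than in both AIN76A libraries, beside 13.2% of genes, and Eci1 was the 1 member lower in both, beside 13.2% of genes as well.

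Acsl1 had 95.8 ± 26.1 CPM in AIN76A and 163 ± 63.6 CPM in NWD2 (SD, n = 2 each), a log2 fold change of 0.77 (SE 0.41). In edgeR's test its p was 0.0928 and its adjusted p 0.996, and without NWD2 replicate 2 the change was 0.30. Ehhadh had 395 ± 38.5 and 649 ± 377 CPM and a log2 fold change of 0.71 (SE 0.41). Cd36 came to 0.70 (SE 0.64), Pdk4 to 0.70 (SE 0.77) and Acsl5 to 0.69 (SE 0.55). Without NWD2 replicate 2 these last 4 turned to -0.045, -0.61, -0.44 and -0.49, so their direction rests on that library.

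NWD2 against NWD1 sets diets that differ in calcium and vitamin D3 against each other, and here the members' largest differences were towards lower levels in NWD2. Acot1 had 21.7 ± 6.04 CPM (SD, n = 3) in NWD1 and 5.16 ± 1.69 CPM (SD, n = 2) in NWD2, a log2 fold change of -2.07 (SE 0.79). Acadl had 387 ± 29.0 and 217 ± 14.02 CPM, or -0.83 (SE 0.36). These are the 2 members with an unadjusted p under 0.05 in edgeR's test, 0.0273 and 0.0448, which is 6.06% of members beside 7.89% of all genes. Their adjusted p was 0.571 and 0.621, so neither passed. With no filter on low counts, Acot1 passed at an edgeR adjusted p of 0.000169. Over its other alternatives its adjusted p ran from 0.101 to 0.999.

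In 5 members every NWD2 library was below every NWD1 library, and in 0 members above, beside 10.8% of all genes. These 5 are Acot1, Acot2, Acadl, Slc27a2 and Slc27a4, which is 15.2% of members, close to the 14.5% of all genes that were lower without overlap. Slc27a2 had 248 ± 45.2 CPM in NWD1 and 127 ± 6.70 CPM in NWD2, a log2 fold change of -0.96 (SE 0.49). Slc27a4 had 552 ± 89.8 and 312 ± 61.1 CPM, or -0.82 (SE 0.39). Acaa1a came to -0.92 (SE 0.45) with libraries that overlapped, and without NWD2 replicate 2 to -0.52. Without NWD2 replicate 2, Acot1, Acadl, Slc27a2 and Slc27a4 were at -2.44, -0.89, -0.90 and -1.03, and without NWD1 replicate 3 at -2.28, -0.88, -1.10 and -0.70. With a term for the i5 index, which goes partly with diet here, they were at -1.51, -0.72, -0.63 and -1.04. None of these differences passed the adjusted test.

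Over all members the direction against NWD1 depended on the scaling. With TMM 24 of 33 were positive, beside 53.5% of all genes, and the median log2 fold change was 0.16, beside 0.05 over all genes, while library size scaling left 9 positive and moved the median of all genes to -0.19. Without NWD2 replicate 2 only 5 were positive, with a median of -0.37, and without NWD2 replicate 1 the median was 0.52. Both thioesterases were negative under either scaling and without NWD2 replicate 2. No call therefore stands on the members' direction.

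**Figure D3:**
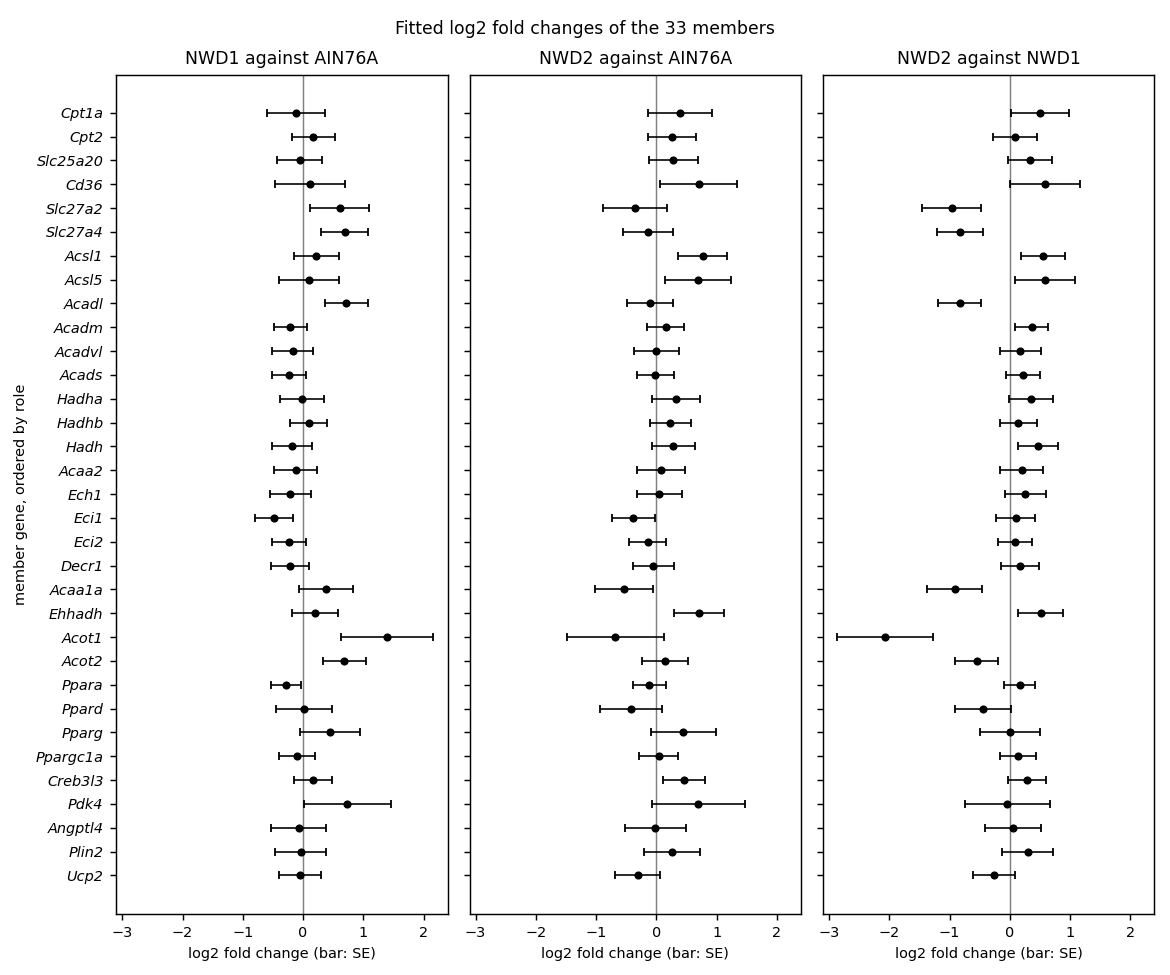
Fitted log2 fold changes of the 33 members, ordered by role, with SE as bars, in the 3 pairwise comparisons of diets under TMM scaling. Most bars cross 0, the thioesterase Acot1 is farthest from 0 in NWD1 against AIN76A (1.39) and in NWD2 against NWD1 (-2.07), and no member passes the adjusted test.

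Both NWD diets together against AIN76A, which share the raised fat, gave 19 positive and 14 negative members (50.9% of all genes were positive), under TMM and library size scaling alike, and 11 positive without NWD2 replicate 2. The median was 0.12 beside 0.01 over all genes. No member was outside the AIN76A range in all 5 NWD libraries in the same direction, beside 5.31% of all genes. The largest fitted changes were Pdk4 at 0.72 (SE 0.67), Acsl1 at 0.49 (SE 0.35), Ehhadh at 0.46 (SE 0.36), Pparg at 0.45 (SE 0.47) and Eci1 at -0.43 (SE 0.29). Without NWD2 replicate 2 the first 4 came to 0.15, 0.26, 0.074 and -0.095, and Eci1 came to -0.18 without AIN76A replicate 1. Without AIN76A replicate 2, Pdk4 came to 1.54, Acsl1 to 0.80 and Pparg to 1.03. The comparisons with AIN76A share its 2 libraries, so their values are not independent of each other.

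Grouped by likeness over the 7 libraries, the members fell into 4 groups, given here as a description. A group of 15 held the carnitine shuttle genes Cpt1a, Cpt2 and Slc25a20, the entry genes Cd36, Acsl1 and Acsl5, Hadha, Hadhb and Hadh, Ehhadh, Pparg, Ppargc1a, Creb3l3, Pdk4 and Plin2. Its median pairwise Pearson r of log2 CPM was 0.76, and NWD2 replicate 2 was highest for 14 of the 15. A group of 6 held Slc27a2, Slc27a4, Acadl, Acaa1a, Acot1 and Acot2, with a median r of 0.88. In it AIN76A replicate 1 was lowest for 5 and an NWD1 library was highest for all 6.

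A group of 10 held Acadm, Acadvl, Acads, Acaa2, Ech1, Eci1, Eci2, Decr1, Ppara and Ucp2, with a median r of 0.78. It was highest in NWD2 replicate 2 for 6 genes and lowest in NWD1 replicate 2 for 4. Ppard and Angptl4 formed a pair (r of 0.76), both highest in NWD1 replicate 2. Genes outside the list with the pattern most like the members' mean over the 7 libraries were Decr2 (r of 0.99), Hsdl2 (0.97), Rhebl1 (0.97), Abhd6 (0.97) and Retsat (0.97). All points of these correlations share library depth and cell makeup.

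**Figure D4:**
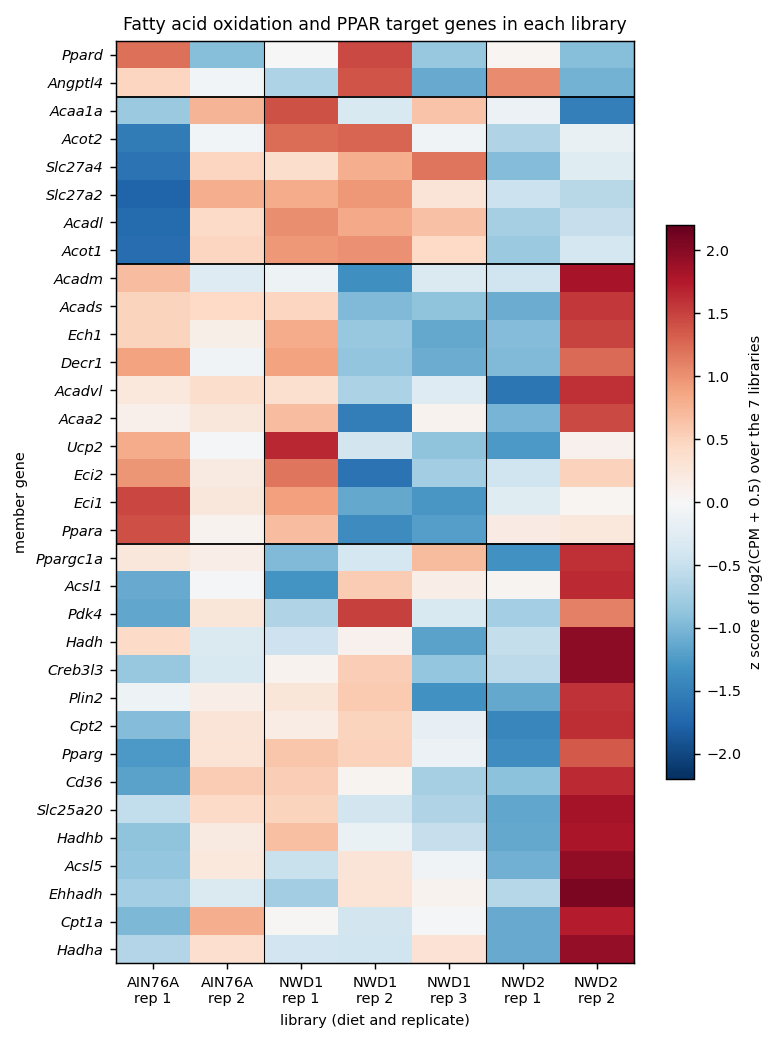
Each row is a member and each column a library, and colour gives the z score of log2(CPM + 0.5) over the 7 libraries, with lines between diets and between the 4 groups of like genes. The group of 15 at the bottom is red in NWD2 replicate 2, which is highest for 14 of them, and the group of 6 is blue in AIN76A replicate 1, which is lowest for 5.

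Other genes of the pathway gave no call either. Of 51 further oxidation genes, 47 were tested and 0 passed in any comparison. At an unadjusted p under 0.05 in edgeR's test, 1 was higher with NWD1 against AIN76A (2.13% beside 3.42% of all genes). With NWD2 against AIN76A or both diets together 0 differed, and 2 were lower with NWD2 against NWD1 (4.26% beside 7.89% of all genes). Of 36 further PPAR targets, 28 were tested and 0 passed. At that p, 1 was higher with NWD1 against AIN76A (3.57% beside 3.42% of all genes), 1 was higher and 2 were lower with NWD2 against AIN76A (10.7% beside 3.83%), 1 was higher and 4 were lower with NWD2 against NWD1 (17.9% beside 7.89%), and 2 were lower with both diets together (7.14% beside 2.67%). The 4 lower with NWD2 against NWD1, named after their values were seen, were Fabp3, Fabp5, Cyp4a32 and Cidea. Of these, Fabp3, Cyp4a32 and Cidea had an average log2 CPM of -1.61, 0.25 and -0.35. In NWD2, Fabp3 was at 0.0137 and 0.129 CPM and Cidea at 0.124 and 0.177 CPM. Both passed the filter on low counts through the other diets, so their lower level in NWD2 is no support. They count in the 17.9% above, and Cidea also in the 10.7%. Cidea had the most negative fitted change of these targets with both diets together, -1.31, so the 7.14% carries the same limit. Of 33 receptor partners and regulators, 32 were tested. At that p, 1 was lower with NWD2 against NWD1 (3.1% beside 7.89% of all genes), with 0 in the other comparisons.

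Fabp1 and Fabp2, the abundant fatty acid binding proteins of enterocytes, ran from 5711 to 14239 and from 2234 to 8681 CPM, with their lowest level in NWD2 replicate 1 and their highest in NWD2 replicate 2. Their log2 fold changes with NWD2 against AIN76A were 0.15 (SE 0.51) and 0.24 (SE 0.62), and turned to -0.062 and -0.021 under library size scaling.

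Fabp5, a fatty acid binding protein of many epithelia, had the smallest p with NWD2 among the further PPAR targets whose average log2 CPM was 1 or more. Cidea, below that level and at 0.124 and 0.177 CPM in NWD2, had larger log2 fold changes. They were -2.68 (SE 0.69) against AIN76A and -2.73 (SE 0.67) against NWD1, with edgeR adjusted p of 0.886 and 0.477. Cidea passed the filter on low counts through the other diets, so these values are no support. Fabp5 had 14.2 and 19.6 CPM in AIN76A, with 24.7, 9.81 and 11.0 in NWD1 and 5.98 and 4.12 in NWD2, below every other library. Of all genes, 13.2% were lower in NWD2 without overlap against AIN76A and 14.5% against NWD1. The log2 fold change of Fabp5 was -1.74 (SE 0.49) against AIN76A and -1.59 (SE 0.46) against NWD1, with edgeR adjusted p of 0.916 and 0.504, and with the i5 term -1.10 and -1.13. The second was -1.04 without NWD1 replicate 1. With DESeq2 the second passed, at an adjusted p of 0.0408. Esrra, a receptor that works with PGC-1 coactivators on mitochondrial genes, had 41.9 and 60.4 CPM in AIN76A, with 96.2, 69.7 and 92.1 in NWD1 and 54.0 and 24.9 in NWD2. With NWD2 against NWD1 it came to -1.13 (SE 0.37, edgeR adjusted p of 0.533), to -0.66 without NWD2 replicate 2 and to -1.82 without NWD2 replicate 1.

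Acot4, a peroxisomal thioesterase gene that shares 1.34% of its 50-base words with Acot1, followed the course of Acot1. It had 5.31 and 12.5 CPM in AIN76A, with 20.01, 28.2 and 10.4 in NWD1 and 7.96 and 7.03 in NWD2. Its log2 fold change was 1.15 (SE 0.49) with NWD1 against AIN76A and -1.39 (SE 0.49) with NWD2 against NWD1, with edgeR adjusted p of 0.878 and 0.548. The first came to 0.65 without AIN76A replicate 1 and 1.89 without AIN76A replicate 2, and the second to -0.48 with the i5 term. Nrip1, a corepressor of nuclear receptors, came to 0.65 (SE 0.30) and Esrra to 0.75 (SE 0.37) with NWD1 against AIN76A. Each was higher in all 3 NWD1 libraries than in both AIN76A libraries, beside 11.4% of all genes. Without AIN76A replicate 1 Nrip1 came to 0.41. With NWD2 against AIN76A, Ctsl, which encodes a lysosomal protease, came to 1.17 (SE 0.46) and Srebf1, which encodes a factor of lipid synthesis, to 1.14 (SE 0.55). Each was higher without overlap, beside 13.2% of all genes. These genes were named for a small p, so their lack of overlap is no further support. Srebf1 came to 0.38 without NWD2 replicate 2, and with the i5 term Ctsl came to 2.09 and Srebf1 to 2.06. None of these passed the adjusted test.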

How the data were processed

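RNA-seq counts of 7 libraries were analysed. Counts as deposited are integers for each Ensembl gene, and the deposited TPM values cover 6 of these libraries. A SMART-Seq v4 kit and then Nextera XT gave paired-end libraries, per the labels' protocols, which do not mark strand, so a gene and an antisense partner cannot be told apart. Per the submitters' processing notes, the tools were STAR 2.4.2a, HTSeq 0.6.1 and edgeR with no version, on mm9. The annotation and filters are not given in the sources used here. The TPM table has 1 column that matches no sample, which was not used.

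The members and lists were chosen with earlier results of these data known. Symbols are those of the TPM table, joined by Ensembl ID. The main test was edgeR 4.0.16 in R 4.3.3: TMM scaling, filterByExpr on diet, robust quasi-likelihood fit, and diet as the only term over all 7 libraries, with 4 residual degrees of freedom and Benjamini-Hochberg adjustment over 14626 genes. An adjusted p under 0.05 was called. The fit was tested on simulated data. Log2 fold changes carry the SE of the fit, and CPM are TMM-scaled. An exact permutation test over libraries could not go below p = 0.333 for 2 against 2, 0.1 for 3 against 2 or 0.0476 for 5 against 2, so none was used.

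Members named with full values were those with an unadjusted p under 0.05 and the 5 of largest change whose average log2 CPM was 1 or more. Of the other lists these were Fabp1 and Fabp2, and the 3 of smallest p per comparison. Some genes of that rule are not reported here. Genes of like pattern were the 5 with the highest Pearson r to the members' mean z score, over genes whose average log2 CPM was 3 or more. Shared 50-base words came from GENCODE vM21 transcripts. Alternatives were scaling by library size or by DESeq2 size factors, a filter of 1 CPM in 2 libraries or none, DESeq2 1.42.0, limma 3.58.1 voom, limma on log2(TPM + 1) and log2(TPM + 0.1), a term for replicate number, sex or i5 index, an adjusted p under 0.1, a fit of only the diets compared, and each library left out. Counts of members by direction or extreme library under other settings were added after the data were seen.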

Additional observations from a re-analysis of the deposited data

How the results depend on the processing

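The count of called genes was 0 in the 4 comparisons, in the order NWD1 against AIN76A, NWD2 against AIN76A, NWD2 against NWD1, and both against AIN76A. It became 85, 190, 384 and 89 with no filter and 1, 52, 180 and 2 with DESeq2. With limma it was 1, 0, 1 and 1 on log2(TPM + 1), and 2, 0, 0 and 0 on log2(TPM + 0.1). It was 0, 1, 0 and 0 with the replicate block, 0, 1, 2 and 0 with an i5 term, and 6 with only the diets compared for NWD2 against AIN76A. Leaving out each library gave 0 in every comparison, except 0 to 1 for NWD2 against NWD1 (1 without NWD2 replicate 2). The cause of these differences was not tested. Of the named genes, Acot1, Acot4 and Fabp5 passed with no filter for NWD2 against NWD1, Fabp5 also for NWD2 against AIN76A, and Fabp5 passed with DESeq2 for NWD2 against NWD1. No other named gene passed under any alternative.

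The members' median for NWD2 against NWD1 became -0.15 and -0.16 in TPM. Leaving out each library gave -0.06 to 0.19, -0.41 to 0.40, -0.37 to 0.52 and -0.19 to 0.33 in the order above, and positive members from 11 to 20, 4 to 24, 5 to 24 and 11 to 25. Library size scaling left 9 positive for NWD2 against NWD1.

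Replicate numbers pair no animals in the labels, and the correlation of same-numbered libraries' deviations was 0.06 to 0.32. In a diet of 2 libraries the deviations mirror each other, so these values cannot decide whether same-numbered libraries shared handling. The replicate block gave member medians of 0.12, 0.07, 0.06 and 0.16.

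These directions reversed, none of them of a gene that passed. Pdk4 with NWD1 against AIN76A was -0.19 with a sex term. With NWD2 against AIN76A, Fabp1 was -0.062 by library size and -0.0130 in both TPM fits, and Fabp2 -0.021 by library size, -0.00556 with voom and -0.031 in both TPM fits. With NWD2 against NWD1, Fabp2 was -0.32 by library size, -0.20 with voom, -0.65 in both TPM fits, -0.47 with the replicate block and -0.049 with a sex term, and Fabp1 was 0.12 with a sex term and 0.66 with an i5 term.

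Leaving out each library reversed others. For NWD1 against AIN76A the ranges were -0.16 to 0.70 for Fabp2 and -0.19 to 1.56 for Pdk4. For NWD2 against AIN76A they were -0.045 to 1.17 for Ehhadh, -0.61 to 1.54 for Cd36, -0.44 to 1.52 for Pdk4, -0.49 to 1.29 for Acsl5, -0.65 to 0.62 for Fabp1 and -1.04 to 0.87 for Fabp2. For NWD2 against NWD1 they were -0.85 to 0.42 for Fabp1 and -1.25 to 0.67 for Fabp2. For both diets they were -0.095 to 1.03 for Pparg, -0.22 to 0.41 for Fabp1 and -0.42 to 0.72 for Fabp2. Of the 790 alternative values of named genes, 749 kept direction and side of the threshold. As no named gene passed in the main fit, keeping the side means only that it still did not pass. The alternative at an adjusted p under 0.1 reused the main fit, so its directions could not change.

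With 2 or 3 libraries per diet, of which NWD2 replicate 2 stands apart, small differences between diets were not detectable.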
